A study of Mus musculus with 24 samples.

Results

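The mRNAs described here encode the subunits of the receptors for glutamate and GABA, the main excitatory and inhibitory transmitters of the brain. Members were taken by gene symbol from the 24079 genes counted, and 47 genes met the rule: 4 AMPA, 7 NMDA, 5 kainate and 2 delta subunits of the ionotropic glutamate receptors, 8 metabotropic glutamate receptors, 19 GABA-A subunits and 2 GABA-B subunits. The rule used no measured value. Polyadenylated RNA was sequenced from dorsal striatum (DS) and nucleus accumbens (Acb) of mice, once from the initial lysate (whole lysates, the cytosolic steady-state mRNA) and once from the sucrose gradient fractions that held mRNAs with more than 4 ribosomes (heavy polysomal fractions). The mice were either rpS6 knockin animals (rpS6P-/-), in which every phosphorylatable serine of ribosomal protein S6 is replaced by alanine in all cells, or their wild-type littermates on the same mixed C57Bl/6/Sv129/ICR background, males and females. Each region, kind of RNA and genotype had 3 libraries, 24 in all, each from pooled mice, so that p-values measure the spread between these pools. The knockin changes codons rather than gene dosage, so the read counts of its gene could not check the genotype labels.

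AMPA receptors carry most fast excitatory transmission, NMDA receptors add a slower calcium-permeable current that requires Grin1 in every receptor, and kainate and delta subunits modulate synapses, while metabotropic glutamate receptors act through G proteins. GABA-A receptors are chloride channels assembled from alpha and beta subunits with a gamma or delta subunit, and GABA-B receptors are G protein-coupled pairs of Gabbr1 and Gabbr2. Medium spiny neurons, the principal cells of the striatum, are themselves GABAergic and receive glutamate from cortex and thalamus.

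Library totals ranged from 9280589 to 34703044 reads, and their medians were 14889586 for lysates and 19862908 for heavy polysomal fractions. Bc1, a neuronal noncoding RNA, made up 0.897 to 3.85% of a heavy polysomal library and 15.2 to 26.1% of a lysate library, so that scaling by library totals and by TMM, which was used here, differ between the kinds of RNA. The 47 receptor genes together held 0.337 to 0.480% of the reads in whole lysates and 0.342 to 0.584% in heavy polysomal fractions. All 10 markers of medium spiny neurons were detected in all libraries, with summed levels, in read counts scaled to a common library size (CPM), of 4285 to 4650.3 CPM in Acb whole lysates and 4648 to 5178 CPM in DS whole lysates.

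Of the 47 genes, 40 had enough reads to be tested in each of the 12 comparisons, 4 in some of them (Gabra6, Gabre, Gabrr1 and Grin3b) and 3 in none. The 3 untested genes were Grm6, the metabotropic receptor of retinal bipolar cells, which had 0 reads in all 24 libraries, Gabrp with 6 reads in all and Gabrr3 with 13. Gabrr1, another rho subunit, had 22 reads over the 24 libraries, Grin3b 47 and Gabra6, the alpha subunit of cerebellar granule cells, 70. Reads were present in every library for 37 genes, and 29 genes had over 100 reads in every library.

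Levels of different genes were compared in wild-type whole lysates, per kb of coding sequence. Gabbr1, which binds GABA in the GABA-B receptor, stood highest in both regions, at 254 ± 18.3 CPM per coding kb in Acb (SD, n = 3) and 183 ± 17.3 in DS. Its partner Gabbr2, which couples the pair to G proteins, had only 11.5 ± 2.50 in Acb and 18.8 ± 5.38 in DS. Among GABA-A subunits, Gabrb2, a beta subunit, had 187 ± 19.9 CPM per coding kb in Acb and 161 ± 6.93 in DS. In bulk tissue, fewer cells of a type and less RNA per cell cannot be told apart, here and in all comparisons that follow.

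Gria2, the subunit that makes AMPA receptors impermeable to calcium, had 171 ± 19.9 CPM per coding kb in Acb and 138 ± 4.92 in DS, and Gria1 had 164 ± 10.4 and 126 ± 10.8. Gria2 made up 40.8% ± 1.85 of the AMPA subunit level in Acb (SD over 3 wild-type lysates) and 38.9% ± 1.35 in DS, Gria1 39.3% ± 2.29 and 35.7% ± 1.65, and Gria3 12.9% ± 1.03 and 17.9% ± 1.83. Grin1 held 73.5% ± 0.409 of the NMDA subunit level in Acb and 77.4% ± 0.499 in DS. Among the Grin2 subunits, which bind glutamate and set the kinetics of the receptor, Grin2b accounted for 44.1% ± 4.92 in Acb and 53.6% ± 13.4 in DS. Grin3a, a subunit that lowers calcium permeability, followed Grin1 at 11.8 ± 1.85 CPM per coding kb in Acb, and in DS it had 7.06 ± 1.42 against 6.96 ± 2.87 for Grin2b, a difference smaller than their SDs. Grm5, the Gq-coupled receptor of striatal dendrites, made up 51.8% ± 2.34 of the metabotropic receptor level in Acb and 49.1% ± 3.16 in DS, ahead of Grm3, a Gi-coupled receptor also found on glia, at 14.8% ± 2.92 and 14.1% ± 3.36.

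Kainate receptors were led by Grik5, a high-affinity subunit that needs a partner from Grik1 to Grik3, at 38.9 ± 1.61 CPM per coding kb in Acb and 42.6 ± 7.16 in DS. Grik2 had 32.8 ± 2.57 in Acb and 25.0 ± 2.64 in DS, and Grik3 27.1 ± 7.10 and 32.5 ± 4.43, so that Grik2 came next in Acb, by less than the SD of Grik3, and Grik3 came next in DS. The delta subunit Grid1, a synaptic organizer, had 13.4 ± 2.07 and 9.52 ± 0.318. Dividing by transcript in place of coding length left Gabbr1 first, but put Gria1 above Gria2 in both regions and Grin2c above Grin2b, whose longest transcript had 24060 bases. The gene models of the deposited counts may differ from those used for lengths, so the order between genes of like level depends on the model.

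**Figure D1:**
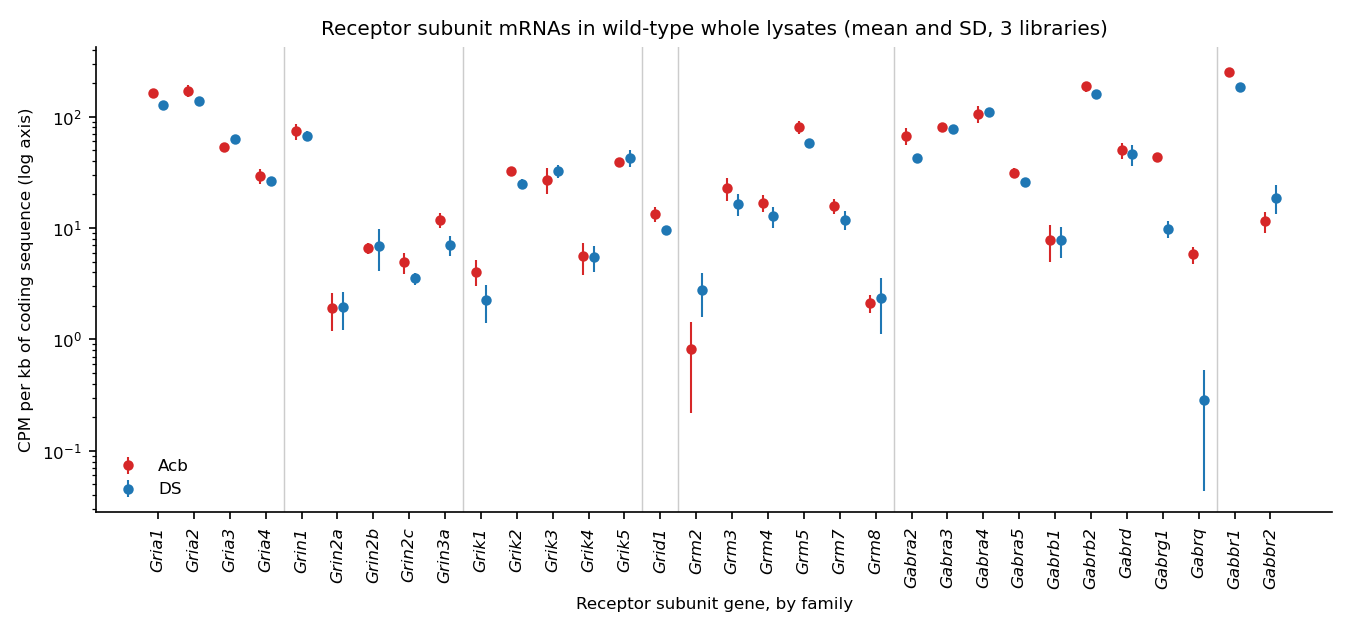
Levels of 32 receptor subunit genes in wild-type whole lysates, in CPM per kb of coding sequence on a log axis, grouped by family. Points are means of 3 libraries and bars are SDs, with Acb and DS side by side. Gabbr1 was highest in both regions, and Gabrg1 showed one of the widest gaps between Acb and DS.

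The first comparison asked how the heavy polysomal fractions differed from the whole lysates they came from, with 6 libraries of each kind per region and genotype as a covariate. In both regions the NMDA subunits Grin1 and Grin2b and the AMPA subunit Gria2 were lower in heavy polysomal fractions, and the GABA-A subunit Gabra4 and the AMPA subunit Gria4 were higher. In Acb, 5 of 44 receptor genes tested were higher in the heavy polysomal fraction and 4 were lower (edgeR quasi-likelihood F test, Benjamini-Hochberg adjusted p under 0.05), which is 11.4% and 9.09%, against 15.6% and 14.3% of all genes tested. In DS, 5 of 42 were higher and 15 were lower, 11.9% and 35.7%, against 19.5% and 17.5% of all genes. The median log2 fold change of the receptor genes was 0.098 in Acb and -0.24 in DS, against 0.043 and 0.030 over all genes. Among genes with at least 50 reads on average, 15 of 37 receptor genes (40.5%) were lower in DS heavy polysomal fractions, against 23.7% of all such genes. Libraries of the 2 kinds did not overlap within either genotype for 5 of 39 receptor genes in Acb and 10 of 37 in DS, against 23.6% and 32.6% of all genes with 50 reads. Calls were made in both regions for 6 genes, all in the same direction, which is 66.7% of the 9 in Acb and 30.0% of the 20 in DS. No such overlap over all genes is given here. The splits into higher and lower depended on how the 2 kinds of RNA were scaled. Scaling by library totals moved the median of all genes to 0.31 in Acb and 0.23 in DS and gave 16 higher and 2 lower receptor genes in Acb and 8 higher and 6 lower in DS. Removing the trend with transcript length gave 11 higher and 2 lower in Acb and 7 higher and 4 lower in DS, and with coding length 11 and 3 in Acb and 10 and 6 in DS. The shares of all genes called under these alternatives are not given here, so the splits cannot be read as particular to receptor genes.

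Grin1, the subunit present in every NMDA receptor (chromosome 2, 25291177 to 25319187, GRCm38), had 80.3 to 136 CPM with a median of 105 CPM in the 6 heavy polysomal fractions of Acb and 170.0 to 231 CPM with a median of 218 CPM in the 6 whole lysates. In DS it had 70.8 to 127 CPM with a median of 97.3 CPM in heavy polysomal fractions and 166 to 212 CPM with a median of 198 CPM in whole lysates. Every heavy polysomal fraction lay below every whole lysate in both regions, and the heavy over lysate ratio was below 0 on the log2 scale for 6 of 6 pairs in each. The log2 fold change was -0.98 ± 0.12 (SE) in Acb (edgeR, Benjamini-Hochberg adjusted p 3.02e-07) and -0.98 ± 0.11 (SE) in DS (adjusted p 8.33e-10), and it passed the threshold in 16 of 16 alternative analyses of each region. Grin2b, the Grin2 subunit that anchors CaMKII, had 10.5 to 21.0 CPM with a median of 14.9 CPM in heavy polysomal fractions of Acb against 27.1 to 33.2 CPM with a median of 30.1 CPM in whole lysates, again without overlap. Its log2 fold change in Acb was -0.93 ± 0.16 (SE) (edgeR, adjusted p 3.73e-05), and with the trend over transcript length removed it was -0.36 with an adjusted p of 0.109. In DS, where the libraries of Grin2b overlapped, it fell by 0.79 on the log2 scale (edgeR, adjusted p 0.000176, and 0.806 with the transcript length trend removed) and Grin2a by 1.06 (adjusted p 0.00184). Grin2c, Grin2d, Grin3a and Grin3b passed the test in neither region. As a share of the NMDA subunit level in wild-type libraries, Grin1 had 63.7% ± 5.27 in Acb heavy polysomal fractions and 67.9% ± 0.994 in those of DS (SD, n = 3), below its shares of the lysates given above.

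Gria2 had 222 to 347 CPM with a median of 283 CPM in DS heavy polysomal fractions and 349.5 to 511 CPM with a median of 414 CPM in DS whole lysates, and every heavy polysomal fraction lay below every lysate. The log2 fold change of Gria2 was -0.58 ± 0.10 (SE) in DS (edgeR, adjusted p 1.86e-06) and -0.39 in Acb (adjusted p 0.00856), and in DS it was 0.083 with the transcript length trend removed. Gria1 was lower by 0.24 in DS heavy polysomal fractions (edgeR, adjusted p 0.0384), without overlap within a genotype, and was not called in Acb (adjusted p 0.807). Gria4, an AMPA subunit rich in fast-spiking interneurons, went the other way. It had 93.1 to 136 CPM with a median of 102 CPM in heavy polysomal fractions and 71.6 to 94.5 CPM with a median of 80.3 CPM in whole lysates of Acb, and 78.9 to 109 CPM (median 100.05 CPM) against 64.4 to 89.5 CPM (median 74.6 CPM) in DS. The ranges met when both genotypes were pooled but not within a genotype, and the log2 fold changes were 0.39 ± 0.12 (SE) in Acb (edgeR, adjusted p 0.0146) and 0.33 ± 0.11 (SE) in DS (adjusted p 0.0116). Without wild-type replicate 3 of Acb the adjusted p for Gria4 was 0.133, and without knockin replicate 2 it was 0.0826. In DS it was 0.0873 without wild-type replicate 3 and 0.0705 without knockin replicate 2.

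Gabra4, an alpha subunit of extrasynaptic and synaptic GABA-A receptors of medium spiny neurons, had 235 to 335 CPM with a median of 272 CPM in DS heavy polysomal fractions and 174 to 205 CPM with a median of 194 CPM in DS whole lysates. All 6 heavy polysomal fractions lay above all 6 lysates, with a log2 fold change of 0.55 ± 0.10 (SE) (edgeR, adjusted p 6.49e-06) that passed in 16 of 16 alternatives. In Acb, Gabra4 was 0.43 higher on the log2 scale (adjusted p 0.00857), with overlap between the kinds of RNA. Gabra4 made up 32.5% ± 3.32 of the alpha subunit level in wild-type Acb heavy polysomal fractions and 36.3% ± 3.89 in DS, against 23.2% ± 2.44 and 25.7% ± 1.20 in lysates.

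Of the other GABA-A subunits, Gabrg1 rose by 0.56 on the log2 scale in Acb heavy polysomal fractions, and in DS Gabra2, Gabra3 and Gabrb2 were lower by 0.30 to 0.49. Gabra3, another alpha subunit, had 73.4 to 105 CPM with a median of 81.4 CPM in DS heavy polysomal fractions and 105 to 137 CPM with a median of 119 CPM in lysates. The highest heavy polysomal fraction, a wild-type library, stood just below the lowest lysate, and the log2 fold change was -0.49 ± 0.11 (SE) (edgeR, adjusted p 0.000194). Gabra2 had 43.2 to 61.3 CPM (median 52.6 CPM) against 55.4 to 84.0 CPM (median 62.9 CPM), a log2 fold change of -0.36 ± 0.11 (SE) (adjusted p 0.00952) that was 0.027 with the transcript length trend removed. Of the GABA-B pair, Gabbr1 had 587 to 785 CPM with a median of 648 CPM in DS heavy polysomal fractions and 489 to 583 CPM with a median of 556 CPM in DS lysates. All 6 heavy polysomal fractions stood above all 6 lysates, with a log2 fold change of 0.25 ± 0.092 (SE) (edgeR, adjusted p 0.0274). This call was lost without DS wild-type replicate 1 (adjusted p 0.143) and without knockin replicates 2 (0.144) or 3 (0.0558). Gabbr2 fell by 0.35 on the log2 scale in DS heavy polysomal fractions.

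Among the remaining glutamate receptors, Grid1 was higher in Acb heavy polysomal fractions, 47.4 to 68.6 CPM (median 59.7 CPM) against 33.5 to 53.7 CPM (median 44.2 CPM). The libraries overlapped across genotypes but not within them, and its log2 fold change was 0.41 ± 0.13 (SE) (edgeR, adjusted p 0.0170, and 0.145 without wild-type replicate 3). Of the kainate subunits, Grik2 rose by 0.28 and Grik3 fell by 0.47 in DS. Of the metabotropic receptors, Grm5 and Grm7, a presynaptic autoreceptor, fell by 0.41 and 0.53 in DS. The receptor transcripts were longer than most, with a median of 4711 bases of transcript and 2706 of coding sequence against 3247 and 1410 over 11979 genes with 50 reads. Over all such genes the Spearman correlation of the heavy over lysate change with coding length was -0.476 in Acb and -0.664 in DS, and over the receptor genes -0.478 and -0.235. These are descriptions across genes, which share libraries and are not independent. The part of transcript length in the receptor values was not tested beyond the alternatives given above.

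**Figure D2:**
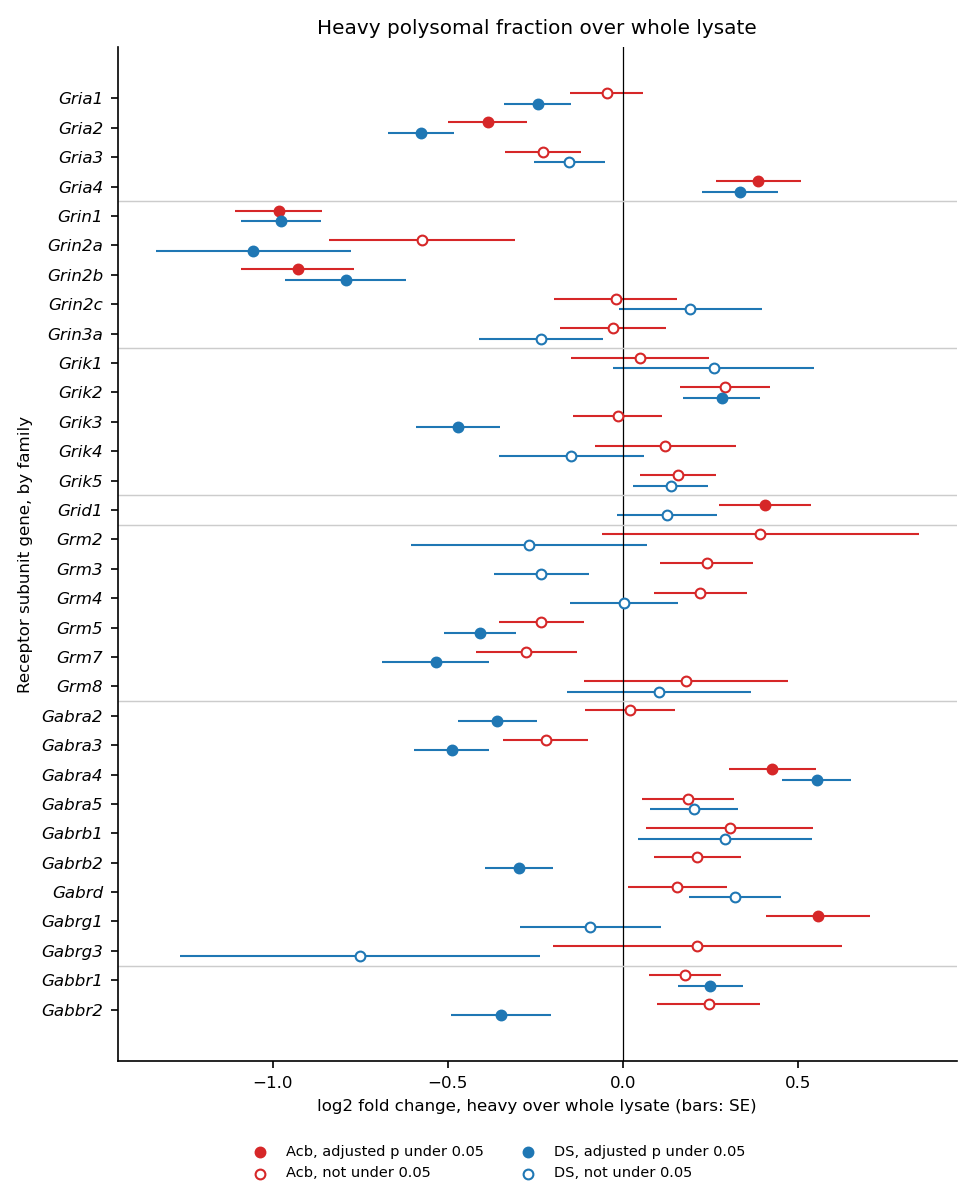
Heavy polysomal fraction over whole lysate for 32 receptor genes, as log2 fold change with SE bars from edgeR, for Acb and DS. Filled points passed an adjusted p of 0.05. Grin1 and Grin2b lay to the left of 0 in both regions, and Gria4 and Gabra4 to the right.

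Whether the heavy over lysate change differed between the regions was tested over all 24 libraries. No receptor gene of 44 passed with edgeR, against 0.328% of all genes tested, and 10 of 44 had an unadjusted p under 0.05, against 15.1% of all genes. Gabrb2 had 229.7 to 387 CPM with a median of 288 CPM in Acb heavy polysomal fractions and 216 to 300.4 CPM with a median of 256 CPM in Acb lysates, but 168 to 224 CPM (median 196 CPM) and 221 to 257 CPM (median 240.5 CPM) in DS. Thus the heavy polysomal values of Gabrb2 reached above the lysates in Acb and lay mostly below them in DS. The difference of the log2 changes was 0.54 ± 0.16 (SE) for Gabrb2 (edgeR, adjusted p 0.106) and Gabrg1 one of 0.68 ± 0.24 (SE) (adjusted p 0.167). DESeq2 put Gabrb2 past the threshold, with an adjusted p of 0.0405.

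The second set of comparisons asked how Acb and DS differ in receptor mRNAs, with 6 libraries of each region and genotype as a covariate. The GABA-A subunits Gabrq, Gabrg1 and Gabra2 were higher in Acb in both kinds of RNA, as were the metabotropic glutamate receptors Grm4 and Grm5, while Gria3 was higher in DS. In whole lysates, 15 of 42 receptor genes were higher in Acb and 3 were higher in DS (edgeR, adjusted p under 0.05), 35.7% and 7.14%, against 9.71% and 9.56% of all genes tested. In heavy polysomal fractions, 17 of 44 were higher in Acb and 1 in DS, 38.6% and 2.27%, against 9.44% and 10.3%. The median log2 fold change, Acb over DS, was 0.25 in lysates and 0.42 in heavy polysomal fractions, against 0.0095 and 0.017 over all genes. Among genes with at least 50 reads on average, 35.1% of receptor genes were higher in Acb lysates and 41.0% in Acb heavy polysomal fractions, against 12.5% and 11.97% of all such genes. Regions did not overlap within either genotype for 12 of 37 receptor genes in lysates and 13 of 39 in heavy polysomal fractions, against 16.1% and 14.5% of all genes with 50 reads. Of the 18 genes called in each kind of RNA, 13 were called in both, with the same direction (72.2% of each), in RNA that came from the same mice. The like overlap over all genes is not given here. By family, 6 of 16 GABA-A subunits were higher in Acb lysates and 8 of 17 in Acb heavy polysomal fractions, and none was lower. Gabre, which met the read filter through its Acb libraries, is in these counts but not in the shares at 50 reads. Those shares and the counts without overlap also hold genes that averaged 50 reads in only 1 region. In lysates Gabrq averaged 139 reads in Acb and 5.33 in DS, and Grm2 28.8 and 97.0. In heavy polysomal fractions Gabrq averaged 209 and 11.8, and Grin2d 111 and 18.5. For such genes the filter favoured the region in which they were higher.

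Gabrq, the theta subunit of GABA-A receptors of monoaminergic and hypothalamic neurons (X chromosome, 72825163 to 72842607), had 6.57 to 15.7 CPM with a median of 12.2 CPM in Acb whole lysates and 0 to 1.02 CPM with a median of 0.131 CPM in those of DS. In heavy polysomal fractions it had 3.75 to 11.6 CPM with a median of 8.22 CPM in Acb and 0 to 1.33 CPM with a median of 0.564 CPM in DS. Every Acb library exceeded every DS library in both kinds of RNA, and 1 DS lysate and 1 DS heavy polysomal fraction held 0 reads. The log2 fold changes were 5.25 ± 0.49 (SE) in lysates (edgeR, adjusted p 5.55e-13) and 3.76 ± 0.53 (SE) in heavy polysomal fractions (adjusted p 1.95e-05). Gabre, the epsilon subunit, lies in the same cluster on the X chromosome (72256926 to 72274828) and had 156 reads over the 6 Acb heavy polysomal fractions but 0 over the 6 of DS. Against a floor of 3 reads over the DS group it was at least 38.0-fold higher in Acb (edgeR, adjusted p 0.00123). With 0 reads in DS, Gabre entered this test through the Acb libraries alone, so the filter fixed its direction. In lysates Gabre passed at 9.17 reads per library on average (adjusted p 0.00451), and 1 of the 6 Acb lysates had none. Gabra3 lies between Gabre and Gabrq (72432676 to 72656919) and was called in neither kind of RNA. Its log2 fold changes were -0.15 in lysates (edgeR, adjusted p 0.316) and 0.12 in heavy polysomal fractions (adjusted p 0.577).

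Gabrg1, a gamma subunit (chromosome 5, 70751047 to 70842617), had 44.6 to 73.7 CPM with a median of 58.7 CPM in Acb whole lysates and 11.9 to 18.6 CPM with a median of 14.1 CPM in DS whole lysates. In heavy polysomal fractions it had 52.8 to 111 CPM with a median of 87.9 CPM in Acb and 9.43 to 21.1 CPM with a median of 13.3 CPM in DS. The lowest Acb library stood above the highest DS library in both kinds of RNA. The log2 fold changes were 1.99 ± 0.15 (SE) in lysates (edgeR, adjusted p 1.47e-16) and 2.63 ± 0.19 (SE) in heavy polysomal fractions (adjusted p 1.29e-09). Gabrg1 made up 21.5% ± 1.09 of the level of gamma and delta subunits in wild-type Acb lysates and 6.96% ± 0.806 in those of DS. Gabrq and Gabrg1 passed in 21 of 21 alternatives in both kinds of RNA.

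Gabra2, the neighbour of Gabrg1 on chromosome 5 (70958392 to 71095849) and an alpha subunit of axon initial segments, had 78.0 to 114 CPM with a median of 91.0 CPM in Acb lysates and 55.4 to 84.0 CPM with a median of 62.9 CPM in DS lysates. The regions touched across genotypes in lysates but were apart in heavy polysomal fractions, at 74.5 to 127 CPM (median 92.6 CPM) and 43.2 to 61.3 CPM (median 52.6 CPM). Its log2 fold changes were 0.52 ± 0.10 (SE) (edgeR, adjusted p 0.000105) and 0.89 ± 0.13 (SE) (adjusted p 2.05e-05). The other members of the cluster were not called in either kind of RNA, with lysate log2 fold changes of -0.075 for Gabra4 (71569734 to 71658308) and 0.24 for Gabrb1 (71657921 to 72149572). Gabra4 and Gabrb1 overlap at their ends on opposite strands, and the deposited counts kept the strands apart. Of the remaining GABA-A subunits, Gabrb2 passed in heavy polysomal fractions, at 0.61, with a lysate value of 0.10 (adjusted p 0.459).

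**Figure D3:**
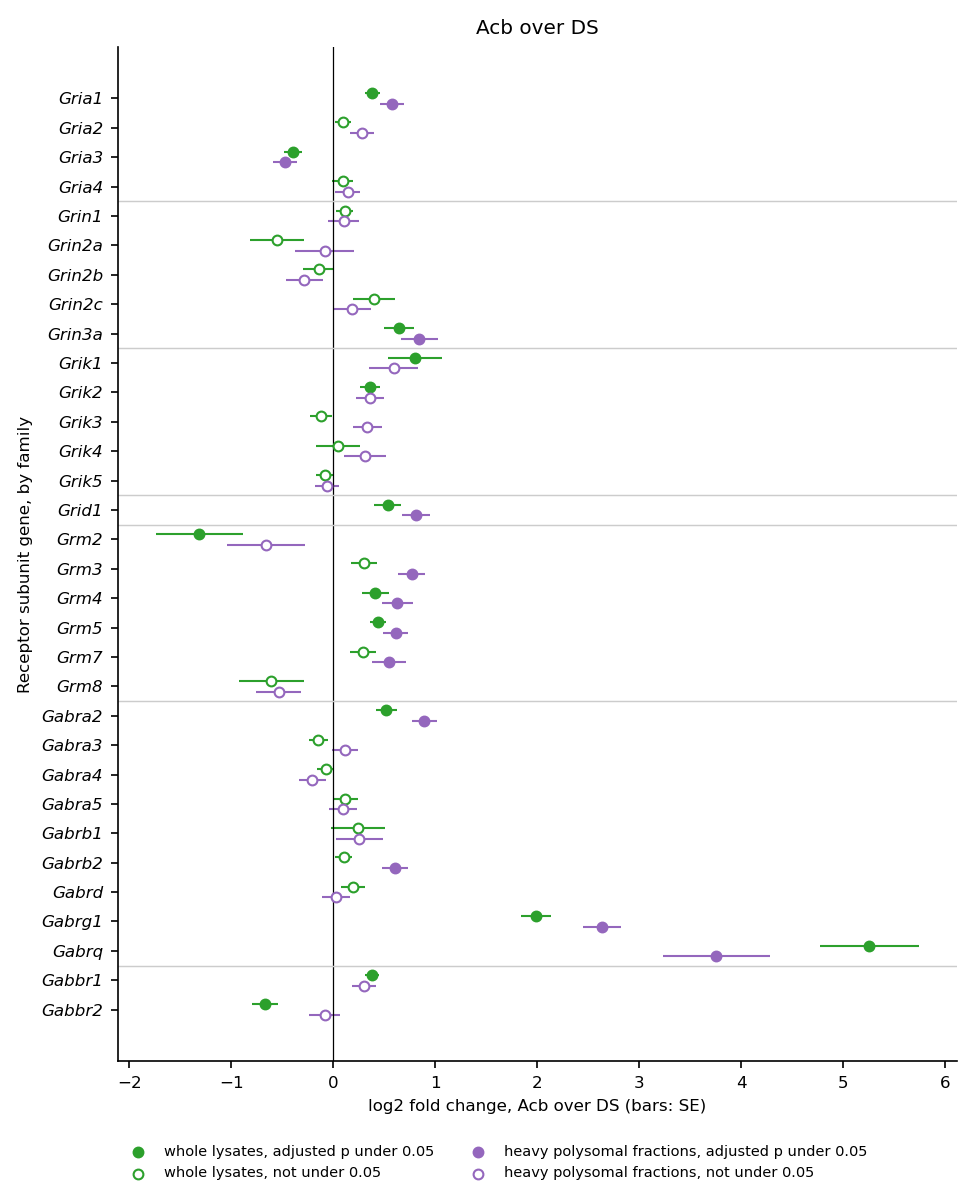
Acb over DS for 32 receptor genes, as log2 fold change with SE bars from edgeR, for whole lysates and heavy polysomal fractions. Filled points passed an adjusted p of 0.05. Most filled points lie to the right of 0, with Gabrq and Gabrg1 the farthest, and Gria3 lies to the left in both kinds of RNA.

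GABA-B subunits were split. Gabbr2 was lower in Acb lysates, at 24.2 to 47.0 CPM with a median of 36.4 CPM against 39.2 to 69.2 CPM with a median of 63.4 CPM in DS. The regions did not overlap within a genotype, and the log2 fold change was -0.67 ± 0.13 (SE) (edgeR, adjusted p 6.01e-05), while in heavy polysomal fractions it was -0.082 (adjusted p 0.765). Gabbr1 was 0.38 higher in Acb lysates (adjusted p 2.50e-05).

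Among AMPA subunits, Gria3 had 119 to 152 CPM with a median of 134 CPM in Acb lysates and 155 to 204 CPM with a median of 175 CPM in DS lysates, and 100.2 to 128 CPM (median 115 CPM) and 133 to 194 CPM (median 163 CPM) in heavy polysomal fractions. Every Acb library lay below every DS library in both kinds of RNA, with log2 fold changes of -0.40 ± 0.085 (SE) (edgeR, adjusted p 0.000294) and -0.48 ± 0.12 (SE) (adjusted p 0.00624). Gria1 was higher in Acb, by 0.38 in lysates and 0.58 in heavy polysomal fractions on the log2 scale. Gria2 and Gria4 passed in neither. Of the NMDA subunits, Grin2d, a Grin2 subunit of interneurons, had 1.29 to 6.39 CPM with a median of 4.31 CPM in Acb heavy polysomal fractions and 0 to 1.70 CPM with a median of 0.857 CPM in those of DS. The regions were apart within each genotype, and the log2 fold change was 2.34 ± 0.53 (SE) (edgeR, adjusted p 0.00291). In lysates Grin2d was 1.71 higher in Acb (adjusted p 0.0183), and Grin3a was higher by 0.64 in lysates and 0.84 in heavy polysomal fractions.

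The delta subunit Grid1 had 33.5 to 53.7 CPM with a median of 44.2 CPM in Acb lysates and 28.2 to 35.5 CPM with a median of 29.1 CPM in DS lysates. Only across genotypes did the regions touch, and its log2 fold change was 0.53 ± 0.13 (SE) in lysates (edgeR, adjusted p 0.00171) and 0.81 in heavy polysomal fractions. The kainate subunit Grik1, at 9.29 to 14.8 CPM with a median of 10.3 CPM in Acb lysates and 3.91 to 8.68 CPM with a median of 6.15 CPM in DS lysates, was 0.80 ± 0.26 (SE) higher in Acb on the log2 scale (edgeR, adjusted p 0.0232). All Acb lysates exceeded all DS lysates for Grik1, yet the adjusted p was 0.0539 without knockin replicate 1 of DS, 0.0853 without wild-type replicate 1 of DS and 0.0853 without wild-type replicate 2 of Acb. Grik2 was 0.36 higher in Acb lysates.

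Metabotropic receptors included the largest difference in favour of DS. Grm2, a presynaptic Gi-coupled receptor of corticostriatal terminals, had 0.329 to 3.49 CPM with a median of 3.06 CPM in Acb lysates and 3.79 to 10.7 CPM with a median of 5.44 CPM in DS lysates. No Acb lysate reached the lowest DS lysate, and the log2 fold change was -1.31 ± 0.43 (SE) (edgeR, adjusted p 0.0211) at 62.9 reads per library on average. The call was lost without wild-type replicate 2 of Acb (adjusted p 0.0535), wild-type replicate 2 of DS (0.104) or knockin replicate 3 of DS (0.0664). Grm4 and Grm5 were higher in Acb in both kinds of RNA, by 0.41 and 0.44 in lysates and 0.63 and 0.61 in heavy polysomal fractions. Grm3 and Grm7 passed in heavy polysomal fractions, at 0.77 and 0.55.

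Markers of other cells moved with region. The summed level of 7 markers of cortical excitatory neurons was 481 to 767 CPM in Acb lysates and 2291 to 3212 CPM in DS lysates, and 651 to 1079 CPM and 3453 to 7279 CPM in heavy polysomal fractions, with 7 of 7 lower in Acb in both. The 5 markers of neighbouring pallidum, septum and thalamus summed to 107 to 148 CPM in Acb lysates and 42.6 to 54.5 CPM in DS lysates, with 5 of 5 higher in Acb in both kinds of RNA. Of 6 astrocyte markers, 4 were higher in Acb in both kinds of RNA, with sums of 1788 to 2444 CPM and 1273 to 1657 CPM in lysates, and 5 of 5 microglia markers were higher, with sums of 142 to 184 CPM and 83.3 to 114 CPM. Of 10 markers of medium spiny neurons, 3 were higher and 6 lower in Acb lysates and 3 and 3 in heavy polysomal fractions. None of the cortical, neighbour, astrocyte or medium spiny neuron markers was at 0 in a group. The part of these cells in the receptor values of either region was not tested.

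**Figure D4:**
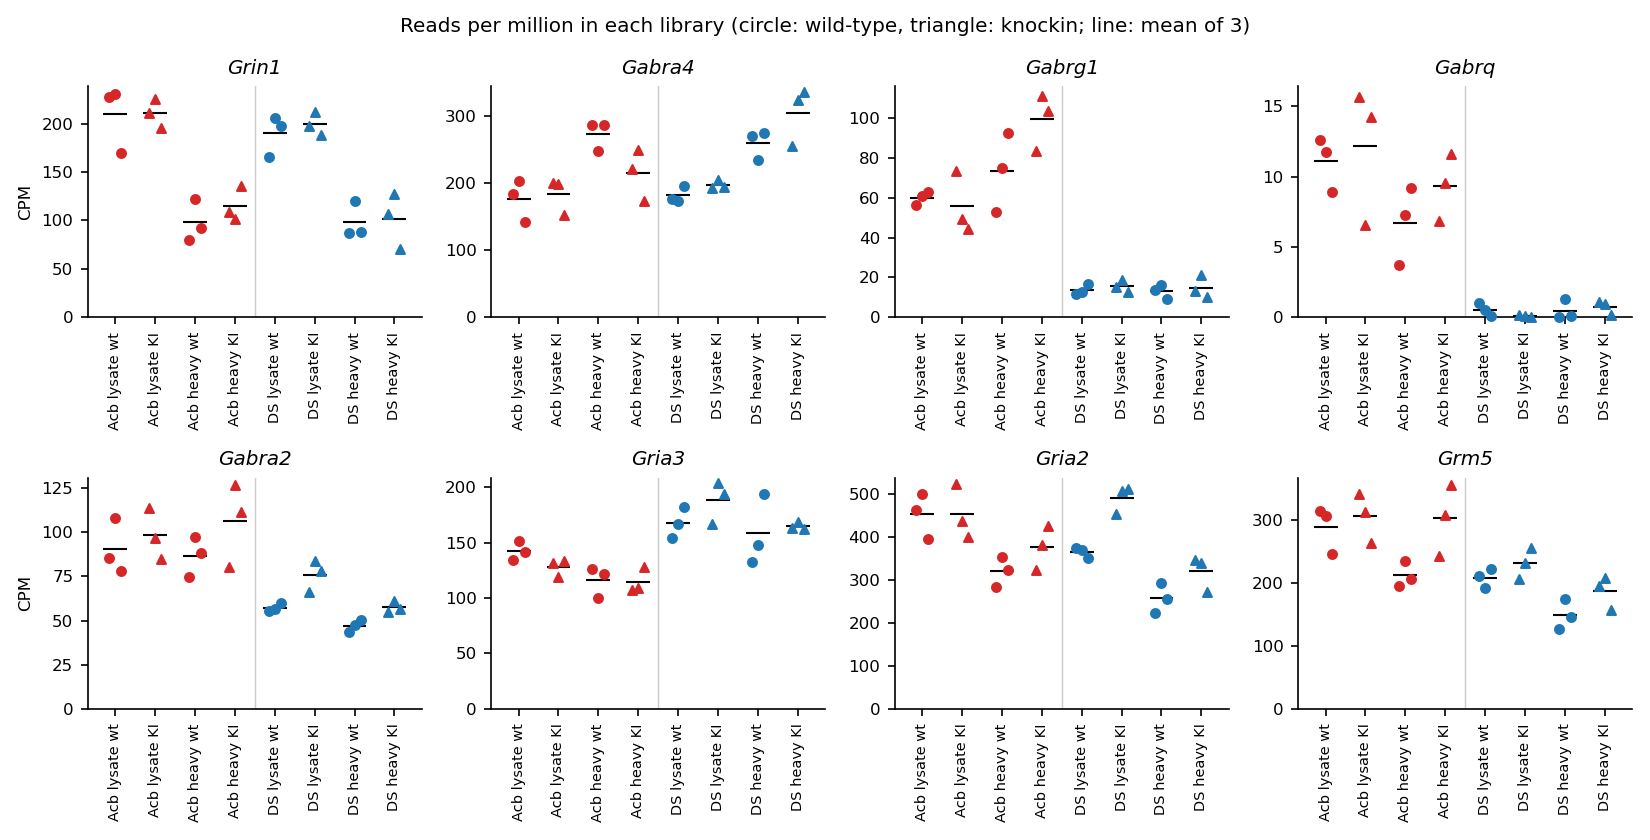
CPM of 8 receptor genes in each of the 24 libraries, with circles for wild-type, triangles for knockin and a line for the mean of 3. Grin1 sits lower and Gabra4 higher in heavy polysomal fractions, Gabrg1, Gabrq and Gabra2 sit higher and Gria3 lower in Acb, and the knockin values of Gria2 lie above the wild-type values in DS whole lysates.

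The third set of comparisons followed the study's own question, whether receptor mRNAs differ between rpS6P-/- and wild-type mice. The study used DESeq2 and reported far more differentially expressed mRNAs in heavy polysomal fractions of Acb than of DS. The main test here was edgeR, so its counts do not bear on that result. Gria2 in DS whole lysates was the only receptor gene that passed, with edgeR. It had 374, 370.2 and 349.5 CPM in the 3 wild-type lysates and 454, 507 and 511 CPM in the 3 knockin lysates, so that all knockin values were above all wild-type values. The log2 fold change was 0.41 ± 0.091 (SE) (edgeR, adjusted p 0.0437), and it passed in 5 of 13 alternatives, with adjusted p from 0.000142 (DESeq2) to 0.516 (transcript length trend removed). It was lost on leaving out knockin replicate 1 (0.117), 2 (0.337) or 3 (0.194) or wild-type replicate 2 (0.251) or 3 (0.0810). In DS heavy polysomal fractions Gria2 differed by 0.37 ± 0.17 (SE) (adjusted p 0.772), and in Acb by 0.24 in heavy polysomal fractions (adjusted p 0.392) and 0.00081 in lysates (adjusted p 0.9996). As a share of AMPA subunits in DS lysates, Gria2 was 44.4% ± 1.32 in knockin and 38.9% ± 1.35 in wild-type mice (SD, n = 3).

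In DS lysates the 1 call among 41 receptor genes stood against 0.122% of all genes tested, and 7 of 41 had an unadjusted p under 0.05, against 9.07%. Genotypes did not overlap for 6 of 37 receptor genes there, against 15.1% of genes with 50 reads. Gabrd, the delta subunit of extrasynaptic receptors, differed by -0.47 ± 0.16 (SE) (edgeR, adjusted p 0.270) and Grin2a by 0.87 ± 0.29 (SE) (adjusted p 0.270). Of the 7 cortical markers, Nrgn, a calmodulin-binding protein also made by striatal neurons, was lower in knockin DS lysates, with a log2 fold change of -0.48 (edgeR, adjusted p 0.000908). The markers summed to 2291 to 2441 CPM in knockin and 2654 to 3212 CPM in wild-type libraries. This sum is mostly Nrgn, which averaged 55268 reads over the DS libraries, against 10442 for Slc17a7, the next marker. It is thus no separate sign for the list. The part of these markers in the value of Gria2 was not tested. Gabrd and Grin2a did not pass, and DESeq2 gave 95 genes and the same 1 receptor gene, Gria2.

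In Acb heavy polysomal fractions no receptor gene of 44 passed, as for 0% of all genes with edgeR, and 4 of 44 had an unadjusted p under 0.05, against 21.7% of all genes. Genotypes did not overlap for 2 of 39 receptor genes, Grm5 and Gabbr1, against 28.6%. Grm5 had 196, 235 and 207 CPM in wild-type and 244, 309 and 357 CPM in knockin libraries. All knockin values were higher, with a log2 fold change of 0.51 ± 0.16 (SE) (edgeR, adjusted p 0.123). DESeq2 called 1090 genes in this comparison, Grm5 among them with an adjusted p of 0.0299 and no other receptor gene. Gabrg1 differed by 0.44 ± 0.19 (SE) (edgeR, adjusted p 0.201), with overlapping libraries.

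In Acb whole lysates no receptor gene of 42 passed, against 0.00650% of all genes, 2 had an unadjusted p under 0.05, against 2.96%, and genotypes did not overlap for 4 of 37, against 7.80%. Grik3 differed by 0.35 ± 0.16 (SE), Gabra3 by -0.29 ± 0.14 (SE) and Gabrd by -0.31 ± 0.18 (SE), each with an edgeR adjusted p of 0.9996. In DS heavy polysomal fractions no receptor gene of 40 passed, against 0.0440% of all genes, 3 had an unadjusted p under 0.05, against 6.42%, and 2 of 35 did not overlap, against 12.5%. Here Gria2, Grm5 (0.37 ± 0.18 (SE)) and the kainate subunit Grik4 (-0.62 ± 0.31 (SE)) had the smallest p, each with an edgeR adjusted p of 0.772. The median log2 fold changes of receptor genes were 0.17 and -0.055 in Acb heavy polysomal fractions and lysates and 0.081 and 0.12 in those of DS.

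**Figure D5:**
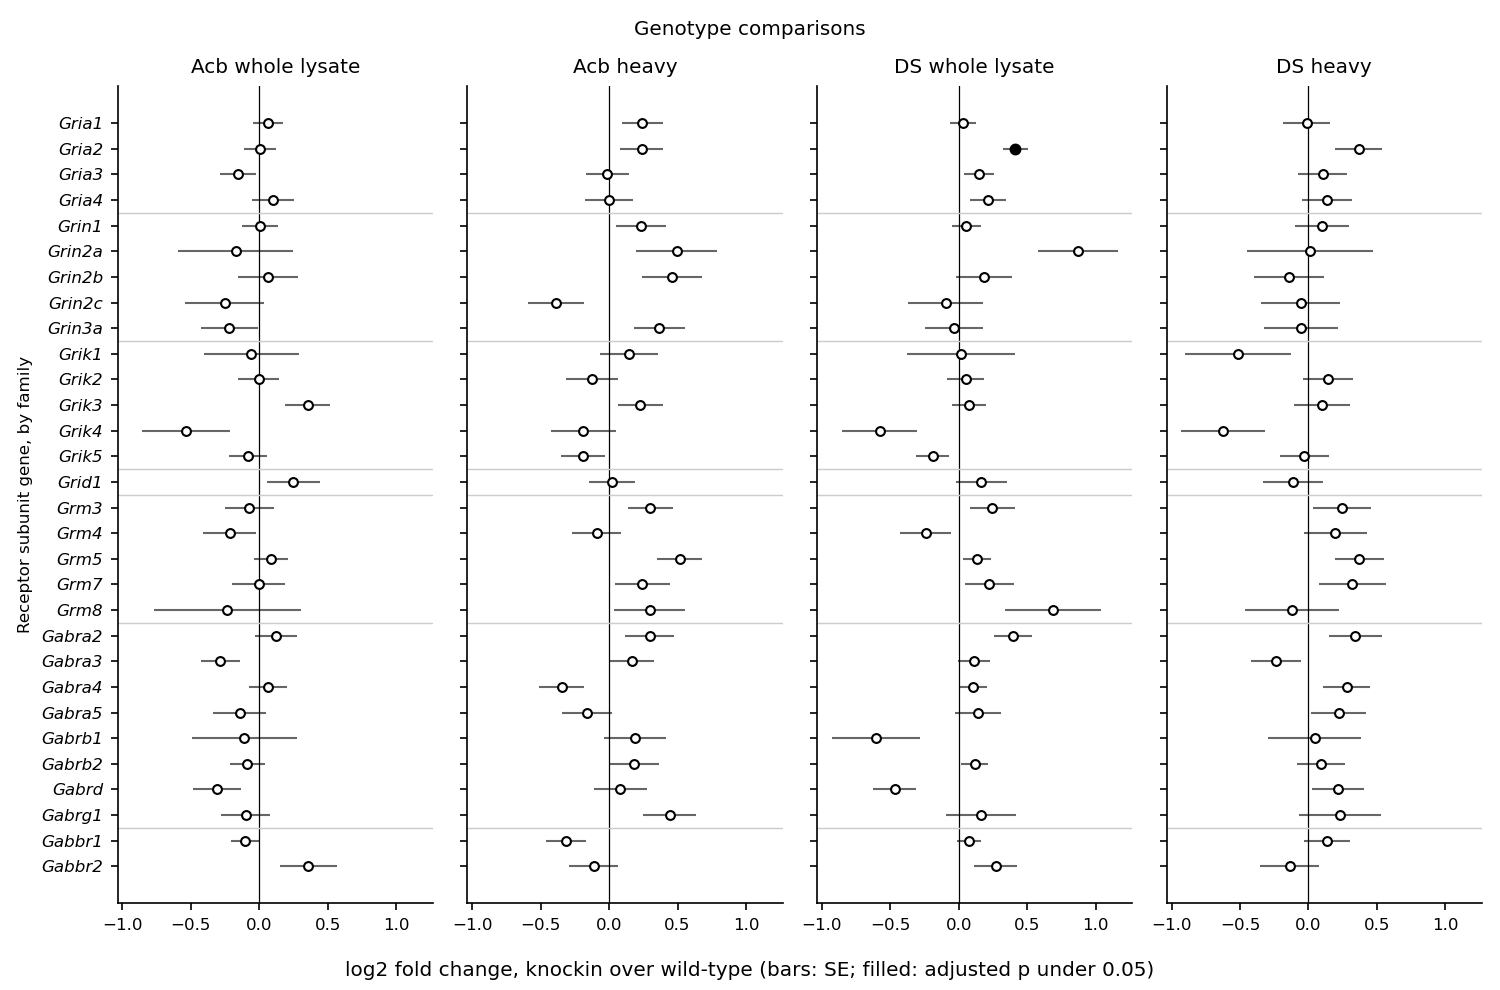
Knockin over wild-type for 30 receptor genes in the 4 combinations of region and kind of RNA, as log2 fold change with SE bars from edgeR. A filled point passed an adjusted p of 0.05, and only Gria2 in DS whole lysates is filled.

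Translational efficiency, the heavy over lysate ratio compared between genotypes, passed the edgeR threshold for no receptor gene of 44 in Acb, as for 0% of all genes. There 2 of 44 had an unadjusted p under 0.05, against 11.9% of all genes. In DS translational efficiency passed for none of 42, as for 0% of all genes, and 1 had an unadjusted p under 0.05, against 4.90%. The study used another method, Xtail, and reported altered efficiency for a subset of mRNAs, with far more genes in Acb than in DS. Xtail was not run here, so these edgeR counts do not bear on that result. The smallest p in Acb belonged to Grin2d, with a difference of 1.499 ± 0.71 (SE) on the log2 scale (edgeR, adjusted p 0.401), Grin3a (0.58, adjusted p 0.409) and Gabrg1 (0.54, adjusted p 0.419). In DS, Gabrd had 0.65 ± 0.25 (SE) and Gabra3 -0.38 ± 0.21 (SE), neither near the edgeR threshold, and Grin3b came next at 1.92 reads per library. The genotype effect in heavy polysomal fractions differed between regions for no receptor gene of 44, against 0.00592% of all genes, and 1 of 44 had an unadjusted p under 0.05, against 13.8%. That gene was Gabra4, with 287, 248 and 287 CPM in wild-type and 221, 250.2 and 173 CPM in knockin Acb, and 269.9, 235 and 275 CPM and 255, 325 and 335 CPM in DS. The knockin mean lay below the wild-type mean in Acb and above it in DS, with overlap, a difference of -0.61 ± 0.24 (SE) that did not pass (edgeR, adjusted p 0.243). DESeq2 called no receptor gene in these 3 tests, nor between genotypes in Acb lysates or DS heavy polysomal fractions. In the region test Gabbr1 had -0.43 (edgeR, adjusted p 0.378) and Grin2b 0.62 (adjusted p 0.431).

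Genes that work with the receptors were followed as lists. The counts that follow stand against shares of all genes tested, higher and lower, of 15.6% and 14.3% in heavy polysomal fractions over lysates of Acb, 19.5% and 17.5% in those of DS, 9.71% and 9.56% in Acb over DS lysates and 9.44% and 10.3% in Acb over DS heavy polysomal fractions. In the same order, the median log2 fold changes of all genes were 0.043, 0.030, 0.0095 and 0.017. Of 11 auxiliary subunits of AMPA receptors, none was higher and 3 were lower in heavy polysomal fractions of Acb, and none and 2 in DS. The largest falls were in Cacng7, at -1.21 in Acb and -1.52 in DS on the log2 scale, and Cnih2, an AMPA receptor export factor, at -1.13 in Acb. Between regions, 2 were higher and 3 lower in Acb lysates and 3 and 4 in Acb heavy polysomal fractions, from Cnih3 at -1.23 and -1.39 to Cacng5 at 1.13 and 1.26. Of the kainate auxiliary proteins Neto1 and Neto2, 1 was higher in Acb heavy polysomal fractions than in lysates and 1 was lower in Acb than in DS lysates. The median log2 fold changes of the AMPA receptor list were 0.024 and -0.051 for heavy polysomal fractions over lysates in Acb and DS and 0.019 and -0.18 for Acb over DS in lysates and heavy polysomal fractions.

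Of 17 scaffold proteins of excitatory synapses, 2 were higher and 5 lower in heavy polysomal fractions of Acb and 2 and 8 in DS. None was higher and 10 were lower in Acb lysates than in DS lysates, and 1 and 6 in heavy polysomal fractions. The medians of the list were -0.056 and -0.23 for heavy polysomal fractions over lysates in Acb and DS and -0.34 and -0.15 for Acb over DS in lysates and heavy polysomal fractions. For Acb over DS in lysates and heavy polysomal fractions, Dlgap1, a PSD-95 binding protein, was at -1.26 and -0.99, and Homer1, which links Grm5 to calcium stores, at -0.85 and -0.69. Of 8 anchoring and auxiliary proteins of GABA-A receptors, 1 was higher and 2 lower in Acb heavy polysomal fractions and 2 and 3 in those of DS, with Gphn, the gephyrin scaffold, at -0.66 and -1.07 and Gabarap, a trafficking protein, at 0.85 in DS. Between regions this list had 0 higher and 1 lower in lysates and 1 and 1 in heavy polysomal fractions, with medians of 0.13 and 0.21. Of the 3 GABA-B auxiliary proteins, none was called between kinds of RNA in Acb and 1 was lower in DS heavy polysomal fractions, and 2 were higher and 1 lower in Acb lysates and 2 and 0 in Acb heavy polysomal fractions. Kctd12, which speeds desensitization of the receptor, was 0.45 and 0.94 higher in Acb.

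Of 14 genes of transmitter synthesis and transport, none was higher and 7 were lower in Acb heavy polysomal fractions, and 1 and 9 in those of DS. Gad1, which makes GABA, was at -0.74 and -0.73, and Abat, which degrades it, at -0.57 and -0.9999. In Acb against DS, 10 were higher and 2 lower in lysates and 11 and 2 in heavy polysomal fractions. The median log2 fold changes of the list were -0.34 and -0.50 for heavy polysomal fractions over lysates in Acb and DS and 0.52 and 0.98 for Acb over DS in lysates and heavy polysomal fractions. Gad2, the synaptic GABA-making enzyme, was 0.98 and 1.34 higher in Acb, Slc32a1, the vesicular GABA transporter, 1.06 and 1.10, and Slc6a11, a GABA transporter of astrocytes, 1.90 and 1.78. Slc17a7, the vesicular glutamate transporter of cortical neurons and 1 of the cortical markers above, was at -2.50 and -2.74. No gene of these 6 lists passed with edgeR in a genotype, translational efficiency or interaction comparison. Of all genes tested, edgeR called 0% for genotype in Acb heavy polysomal fractions and for translational efficiency in either region. In the other genotype and interaction comparisons it called 0.00592% to 0.328% of all genes, so the lack of calls says little about the lists. DESeq2 calls on the lists are not given here.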

How the data were processed

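The authors sequenced poly-A RNA as stranded single libraries and deposited raw read counts per gene for 24 libraries. Per the labels and the study's methods these came from TopHat2 2.0.13 with Bowtie2 2.2.3 on mm10, and HTSeq 0.6.1p1 counting on the annotated strand of UCSC gene models. Before that step the labels name CASAVA 1.8.2, whereas the methods name bcl2fastq for demultiplexing. Gene lengths were taken from GENCODE M21 and positions from RefSeq (GRCm38.p6).

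Counts were tested across all genes with edgeR 4.0.16 in R 4.3.3 (quasi-likelihood F test, TMM scaling, at least 15 reads summed over the libraries compared, Benjamini-Hochberg adjustment, threshold 0.05), with SE taken from the fold change and the F statistic. Genotypes were compared within a region and kind of RNA, and regions and kinds of RNA with genotype as a covariate. DESeq2 1.42.0, other scalings and filters, a replicate block, removal of a trend with length and leaving out each replicate were alternatives. Some of the comparisons were also run on simulated counts, with results not given here, which is no check of the receptor values. Printed values are CPM, counts relative to a common library size scaled by TMM over all libraries, and log2 ratios of paired libraries used a pseudocount of 0.1 CPM. Totals of 9280589 to 34703044 reads limit genes of few reads.

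Heavy polysomal fractions and lysates of a replicate number came from the same initial lysate. Their deviations from group means correlated at -0.038 to 0.074, with 0 of 12 pairs above 0.1. Receptor genes and lists were chosen with earlier results of these data known. Genes given with full statistics passed the threshold with 50 reads on average and no overlap between groups within each genotype, up to 5 in each direction, or else had the 3 smallest p. For levels, the 3 highest of a family per coding kb were named, and for lists, those with the largest change. Other called genes are given by value. A few genes that met these rules are not reported here.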

Additional observations from a re-analysis of the deposited data

How the results depend on the processing

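Of 861 values of single receptor genes under an alternative, 806 kept their direction and their side of the threshold, 44 lost the call, 9 gained one and 2 changed direction, both in DS heavy polysomal fractions over lysates with the transcript length trend removed (Gria2 0.083 and Gabra2 0.027). For heavy over lysate in Acb, the 9 calls became 18 with library totals, 14 with the coding length trend removed (chosen after seeing the data) and 3 with knockin libraries alone, and 6 to 11 on leaving out a replicate. In DS, 20 calls became 11 with the transcript length trend removed and 5 with wild-type libraries alone, and 13 (without knockin replicate 3) to 18 on leaving out a replicate. Of the 18 calls between regions in lysates, 11 were left with wild-type and 9 with knockin libraries alone, where fewer samples were used, and 13 to 19 on leaving out a replicate, and in heavy polysomal fractions 10 with wild-type libraries alone and 17 to 20 on leaving out a replicate. For genotype in Acb heavy polysomal fractions, DESeq2 gave 1 call in place of 0, with 0 on leaving out any replicate. The 1 call in DS lysates became 0 with library totals, with filterByExpr and with the transcript length trend removed, and 0 to 1 on leaving out a replicate. The fraction by region test gave 2 calls with DESeq2, 4 with knockin libraries alone, and 0 to 3 on leaving out a replicate (2 without DS wild-type replicate 2, 3 without Acb wild-type replicate 1). The other genotype, translational efficiency and genotype by region counts stayed at 0 in all alternatives. With the replicate block the counts of calls were 9 and 20 for heavy over lysate in Acb and DS, and it changed no other call count. The shares of all genes called under each alternative are not given here, so the counts of receptor calls cannot be set against them. Regions of 1 number correlated at -0.26 to 0.22 and genotypes of 1 number at -0.29 to 0.32. The measure was no higher for heavy and lysate libraries of 1 lysate, so it cannot tell whether regions of 1 number shared mice. Calls at under 50 reads per library, such as Gabre in lysates, are limited by depth.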
